A study of Mus musculus with 18 samples.

Results

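Mitochondrial rRNA fragments are the sequences in the small RNA of sperm whose first annotation name is the mitochondrial 12S or 16S rRNA. Of 207217 distinct sequences in 4 sperm libraries, 2599 carried such a name, 2594 of them 16S and 5 of them 12S. The sperm came from mice labelled Isca2 -/- (KO, 2 libraries) and wild type (WT, 2 libraries). The Isca2 protein helps mitochondria to build iron-sulfur clusters. The labels give no strain, age or number of animals for the sperm, and they do not say that the replicates came from separate animals, so the spread between libraries may be technical. Oocyte and blastocyst samples of the series were not used here.

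The mitochondrial genome encodes the RNA of its own ribosome, the 12S rRNA of the small subunit and the 16S rRNA of the large subunit. Both genes lie side by side, separated by the gene of the valine tRNA, and are transcribed together as part of a long precursor that is processed at the tRNAs. Sperm keep their mitochondria in the midpiece, and their small RNA is rich in fragments of tRNA and rRNA. The annotation places the 12S gene mt-Rnr1 at MT:70-1024 and the 16S gene mt-Rnr2 at MT:1094-2675 (GRCm38.p6, RefSeq), with lengths of 955 and 1582 bases.

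The 8 16S fragments with the highest mean share of library reads are shown because they carry the pattern described below. Capitals mark the 20 bases that the most reads of their stretch of 16S held in full, or the part of them that the fragment has.
Fragment 1: agcccTACACAAATATAATTATACTattat
Fragment 2: cCAAGTTACCCTAGGGATAACagcg
Fragment 3: AAGTTACCCTAGGGATAACagcg
Fragment 4: cCAAGTTACCCTAGGGATAACagc
Fragment 5: acggacCAAGTTACCCTAGGGATAAC
Fragment 6: gacCAAGTTACCCTAGGGATAACagcg
Fragment 7: cCAAGTTACCCTAGGGATAAC
Fragment 8: gacCAAGTTACCCTAGGGATAAC

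Fragments 2 to 8 are trimmed versions of one stretch of 16S, and only fragment 1 of these 8 comes from elsewhere in the molecule. The bases in capitals in fragments 2 to 8 belong to the conserved part of large-subunit rRNA around the peptidyl transferase centre, where peptide bonds are made.

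All 5 distinct 12S sequences are shown because together they hold every read with that name. Capitals here mark bases shared with an unnamed fragment described further below.
12S sequence 1: cgttaggtCAAGGTGTAGCC
12S sequence 2: ctaagacccaaactgggatt
12S sequence 3: gacccaaactgggattagatacccc
12S sequence 4: gcctagccacacccccacggg
12S sequence 5: gctaagacccaaactgggatt

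The deposited files held 703133 and 746812 reads of 20 to 45 nucleotides (nt) in KO replicates 1 and 2, and 205993 and 703036 reads in WT replicates 1 and 2. WT replicate 2 stood apart from the other 3 libraries: nuclear rRNA took 28.1% and 29.1% of reads in KO replicates 1 and 2, against 32.8% and 66.0% in WT replicates 1 and 2. Small RNA files give no level for Isca2 itself, so they cannot check the genotype labels. Of 5 microRNA families taken as spermatogenic markers, 1 had any read (mir-30d, 2 reads in WT replicate 2), and mir-34b, mir-34c, mir-449a and mir-191 were at 0 in all 4 libraries. All 5 epididymal families had reads, with 49.8 and 210 CPM (read counts scaled to the same library total) in KO replicates 1 and 2 against 150 and 137 in WT replicates 1 and 2, and the 8 families of blood, liver, muscle and neurons had none. Most of the epididymal reads were mir-10b, with 24 and 132 reads in the KO replicates against 22 and 90 reads in the WT replicates, while mir-143 had 1 read in WT replicate 2 alone and mir-200b 3 reads in KO replicate 2 alone. The microRNA markers of germ cells therefore did not bear out the sperm label, and their part in the results was not tested. For families without reads, including those of blood, liver, muscle and neurons, missing RNA and missing annotation cannot be told apart.

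16S fragments took between 2.12% and 2.48% of every library. They had 15701 and 16015 reads in KO replicates 1 and 2, against 5104 and 14921 reads in WT replicates 1 and 2. Together with 12S this was 2.23% (95% Wilson interval 2.20% to 2.27%) and 2.14% (2.11% to 2.18%) of reads in the KO replicates, against 2.48% (2.41% to 2.55%) and 2.12% (2.09% to 2.16%) in the WT replicates. The means were 2.19 ± 0.06% in KO and 2.30 ± 0.25% in WT (SD, n = 2 each), both KO values lay inside the WT range, and the exact permutation test gave p = 1 (two-sided). The overlap depended on the denominator. Among reads outside nuclear rRNA, mitochondrial rRNA took 3.11% and 3.03% in KO replicates 1 and 2, against 3.69% and 6.25% in WT replicates 1 and 2. Among genome-matching reads it took 3.21% and 3.03% in the KO replicates, against 3.91% and 6.17% in the WT replicates. With either denominator both KO libraries lay below both WT libraries, WT replicate 2 was the highest, and the exact permutation test gave p = 0.333 (two-sided). The intervals above, like all others here, cover counting error only. With 2 libraries against 2 the smallest two-sided p that this test can give is 0.333, so none of the comparisons made with it could reach 0.05.

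In the fit across all annotation names 16S was not called. For 16S the KO to WT log2 ratio (log2 fold change) came to -0.26, with an SE of 0.41 and an adjusted p of 0.953 by edgeR's quasi-likelihood test with Benjamini-Hochberg adjustment. Of 64 names tested, 0 (0%) passed an adjusted p of 0.05, and 3 had an unadjusted p under 0.05. DESeq2 also called 0 names and gave 6 at an unadjusted p under 0.05. Scaled with TMM factors, 16S stood at 24223 and 24318 CPM in KO replicates 1 and 2, against 26309 and 31745 CPM in WT replicates 1 and 2. In this scaling every KO library lay below every WT library, while in plain shares of reads they overlapped. The log2 fold change was -0.003 with library totals, and the TMM factor of WT replicate 2 was 0.733 against 1.08 to 1.14 in the other libraries.

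Mitochondrial tRNA and nuclear rRNA varied over a wider range in the same libraries. Mitochondrial tRNA, 91.2% to 96.9% of it the histidine tRNA, took 19.6% and 13.6% of reads in KO replicates 1 and 2, against 20.3% and 5.50% in WT replicates 1 and 2. The ratio of mitochondrial rRNA to mitochondrial tRNA reads was 0.114 and 0.157 in the KO replicates, against 0.122 and 0.386 in the WT replicates. The ratio of mitochondrial to nuclear rRNA reads was 0.0795 and 0.0737 in the KO replicates, against 0.0755 and 0.0322 in the WT replicates. In both ratios WT replicate 2 lay apart and WT replicate 1 lay near the KO libraries, inside their range for each, and the exact permutation test gave p = 0.667 for each (two-sided, adjusted p = 1 over 8 such comparisons).

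12S was almost missing under its own name. It had 0 and 2 reads in KO replicates 1 and 2, against 0 and 5 reads in WT replicates 1 and 2. That is 0% and 0.0125% of mitochondrial rRNA reads in the KO replicates, against 0% and 0.0335% in the WT replicates. The 0 counts allow a share of up to 0.0191% in KO replicate 1 and 0.0588% in WT replicate 1, so no difference between the genotypes was detectable at this depth (exact permutation p = 1, two-sided). 12S sequence 5 had 2 reads in WT replicate 2, and 12S sequence 1 had 1 read in KO replicate 2 and 1 read in WT replicate 2. The other 3 had a single read each, 12S sequence 4 in KO replicate 2 and 12S sequences 2 and 3 in WT replicate 2. 12S did not pass the filter on low counts and was not tested among the names.

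Pooled over the 4 libraries, the reads of 16S covered nearly the whole molecule but were heaped on a few stretches of it. Joined wherever they shared 15 bases, the 2594 fragments spelled 14 stretches with no branch point, here called segments and numbered by their mean share of 16S reads. Their ends overlapped by 9 to 14 bases in 7 places, which left 1531 joined bases, or 96.8% of the annotated length of mt-Rnr2. Segments 13 and 14 rested on 3 reads and 1 read of KO replicate 1 alone. Segment 10 had 1 read in WT replicate 1, which covered 32.6% of its bases. No fragment held 15 bases of the reverse strand. Because no genome was at hand, positions below count from the first base of a segment, and the order of the segments along 16S is not given. The segments that carry most of the reads besides a long second one are shown, with the 20 bases that the most of their reads held in full in capitals.
Segment 1: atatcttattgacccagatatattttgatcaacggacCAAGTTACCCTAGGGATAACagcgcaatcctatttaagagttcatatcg
Segment 3: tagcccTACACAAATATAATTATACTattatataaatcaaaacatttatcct

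Segment 1, of 86 bases, held most of the 16S reads in every library. Its share was 64.7% and 55.8% in KO replicates 1 and 2, against 61.8% and 75.7% in WT replicates 1 and 2. The mean was 60.2 ± 6.26% in KO and 68.7 ± 9.82% in WT (SD, n = 2 each; exact permutation p = 0.667, two-sided), with KO replicate 1 inside the WT range. Read depth peaked at base 39 of the segment in all 4 libraries. The 20 bases in capitals were held in full by 49.1% and 42.1% of all 16S reads in the KO replicates, against 47.6% and 46.9% in the WT replicates.

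Fragments of segment 1 began at many neighbouring bases rather than at one. Most reads of its 507 distinct fragments started at bases 30 to 39, and the group with the largest mean share, starting at base 37, took 11.2% and 9.72% of 16S reads in KO replicates 1 and 2, against 8.68% and 10.5% in WT replicates 1 and 2. The group starting at base 35 took 9.33% and 8.84% in the KO replicates, against 9.33% and 6.25% in the WT replicates. The group starting at base 39 set 1 library apart, with 3.69% and 4.15% in the KO replicates, against 4.31% and 15.8% in the WT replicates. Groups starting at bases 34, 36 and 38 were likewise highest in WT replicate 2, at 5.53%, 8.34% and 7.32%, while those starting at bases 30 to 33 and at base 35 were lowest there.

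The 3′ ends of segment 1 fell at a few bases downstream of the peak. Fragments ending at base 61 took 13.1% and 11.9% of 16S reads in KO replicates 1 and 2, against 13.8% and 16.4% in WT replicates 1 and 2. Those ending at base 57 took 13.5% and 12.2% in the KO replicates, against 12.0% and 14.2% in the WT replicates. The genotypes overlapped at base 57, while at base 61 both KO libraries lay below both WT libraries. The ladder of starts and ends is visible in fragments 2 to 8, of which fragments 2, 3 and 6 end at base 61 and fragments 5, 7 and 8 at base 57.

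Segment 3, of 52 bases, differed from segment 1 in having a single main fragment. Its share of 16S reads was 8.96% and 17.6% in KO replicates 1 and 2, against 14.8% and 3.47% in WT replicates 1 and 2. Fragments that began at its base 2 made up 8.36% and 17.1% of 16S reads in the KO replicates, against 13.8% and 1.74% in the WT replicates, and this was the largest group of shared 5′ starts by mean share in the 4 libraries (10.2%). Within that group the 30 nt form, fragment 1, took 59.3% and 64.3% of the reads in the KO replicates, against 61.3% and 23.1% in the WT replicates. The segment had 21.2% G and C, against 37.2% for segment 1.

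Fragment 1 was the most abundant 16S sequence in both KO libraries and WT replicate 1, and scarce in WT replicate 2. It had 778 and 1757 reads in KO replicates 1 and 2, against 433 and 60 reads in WT replicates 1 and 2. Its share of mitochondrial rRNA reads was 4.96% and 10.97% in the KO replicates, against 8.48% and 0.402% in the WT replicates. The low value came from WT replicate 2 alone, and WT replicate 1 lay between the KO libraries. The mean was 7.96 ± 4.25% in KO and 4.44 ± 5.71% in WT (SD, n = 2 each; exact permutation p = 0.667, two-sided). Across all distinct sequences, edgeR put it at a log2 fold change of 0.57 with an SE of 0.98 (adjusted p = 0.893). Without WT replicate 1, which left WT replicate 2 as the only WT library, the value was 3.67. It turned to -0.40 when WT replicate 2 was left out.

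Fragment 3 showed the opposite picture in the same library. It had 180 and 238 reads in KO replicates 1 and 2, against 63 and 772 reads in WT replicates 1 and 2, which is 1.15% and 1.49% of 16S reads in the KO replicates against 1.23% and 5.17% in the WT replicates. It was the most abundant 16S sequence of WT replicate 2, while WT replicate 1 lay within the KO range. edgeR gave it a log2 fold change of -1.91 with an SE of 0.92 (adjusted p = 0.433). Without WT replicate 1 it was -2.59, and without WT replicate 2 it was -0.20. The other 6 of the 8 fragments had log2 fold changes between -0.67 and -0.03 and adjusted p between 0.848 and 0.996 (edgeR).

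Segment 2 had a mean share of 11.8% of 16S reads over the 4 libraries, against 11.2% for segment 3, and the later segments were thin. Segment 2, of 237 bases and 522 distinct fragments, took 11.8% and 14.8% of 16S reads in KO replicates 1 and 2, against 10.8% and 9.72% in WT replicates 1 and 2, so that both KO libraries lay above both WT libraries. Segment 4 took between 4.10% and 7.04%, and segment 5, the longest at 381 bases, between 3.49% and 4.69%. Segments 6 to 14 each stayed under 1.3% in every library. Split into segments and fitted with all other annotation names, a step chosen after the data were seen, segments 1 to 5 had log2 fold changes of -0.46 (SE 0.42), 0.13 (SE 0.40), 0.37 (SE 0.71), 0.01 (SE 0.43) and -0.15 (SE 0.45). Of 74 features in that fit 0 (0%) were called, and the adjusted p of these 5 segments lay between 0.951 and 0.992 (edgeR).

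No single 16S fragment was called between KO and WT sperm in the 4 libraries. The fit over all distinct sequences tested 2877 that passed the filter on low counts, and 12 of them (0.417%) were called, with 202 16S fragments among those tested and 0 among those called. At an unadjusted p under 0.05 there were 12 16S fragments, or 5.94% of those tested, against 11.2% of all sequences tested. DESeq2 likewise called 0 16S fragments, of 17 calls in all (0.591%), and gave 12 at an unadjusted p under 0.05. The 202 tested fragments had a median log2 fold change of -0.27, with 68 above and 134 below 0, against a median of 0.09 over all tested sequences. Many of these fragments overlap, so they are not separate observations. The median turned to 0.14 for 16S with library totals, against 0.56 over all sequences. With no count filter it was 0.33 for 16S, against 2.02 over all sequences. The rest of the 2594 16S fragments had too few reads for the test.

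Leaving out the shallow library WT replicate 1 changed that count. That fit had WT replicate 2 as the only WT library, whose spread was taken to be like that of the KO libraries. 16S fragments were then called in either direction, and calls were also more frequent among all sequences. These calls are therefore not read as a result about 16S. The median log2 fold change was -0.12 over the 278 16S fragments tested, against 0.50 over all 3964 sequences. Leaving out any other library gave 0 calls of 16S.

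The fragments with the smallest p in each direction are shown to make plain which bases they share. Those on the lower side come from segment 1 and those on the higher side from segment 2. Capitals mark, as far as a fragment has them, the 20 bases that the most reads of its segment held in full. In segment 2 these were held by 1.54% to 3.37% of 16S reads, and its read depth peaked elsewhere.
Lower fragment A: acCAAGTTACCCTAGGGATAACagc
Lower fragment B: AAGTTACCCTAGGGATAACagcgc
Lower fragment C: AAGTTACCCTAGGGATAACagcgcaatc
Higher fragment A: gtttacgaCCTCGATGTTGGATCAGGAC
Higher fragment B: tattaatggttcgtttgttcaacg
Higher fragment C: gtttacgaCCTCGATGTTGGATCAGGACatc

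None of these passed the adjusted test, so the values stand as a description. Lower fragment A had 15 and 42 reads in KO replicates 1 and 2, against 15 and 183 reads in WT replicates 1 and 2 (log2 fold change -2.73, SE 0.98, adjusted p = 0.266, edgeR). Lower fragment B had 94 and 110 reads in the KO replicates, against 57 and 569 reads in the WT replicates (log2 fold change -2.55, SE 0.93, adjusted p = 0.275, edgeR). Lower fragment C had 3 and 11 reads in the KO replicates, against 5 and 47 reads in the WT replicates. As a share of reads each lay lower in both KO libraries than in both WT libraries, and WT replicate 2 was highest for each.

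Higher fragment A had 11 and 18 reads in KO replicates 1 and 2 and 0 in both WT replicates (adjusted p = 0.282, edgeR). Higher fragment B had 20 and 34 reads in the KO replicates, against 2 and 4 reads in the WT replicates (log2 fold change 1.90, SE 1.01, adjusted p = 0.476, edgeR). Higher fragment C, which has the same start as A and is longer at its 3′ end, had 13 and 11 reads in the KO replicates, against 0 and 1 in the WT replicates. At 0 to 4 reads in WT these values rest on counts too small to give a firm size. Each of these fragments passed the filter on low counts only through the KO libraries, where it was high. Their values therefore cannot serve as support for a difference. The unadjusted p was 0.0158, 0.0714 and 0.0858 for higher fragments A, B and C (edgeR).

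16S reads were short and their lengths were spread widely. Their median length was 27 nt in both KO replicates, against 28 nt and 25 nt in WT replicates 1 and 2. With 12S included, the mean was 27.4 nt in both KO replicates, against 28.4 and 25.9 nt in the WT replicates (27.4 ± 0.06 nt in KO and 27.1 ± 1.75 nt in WT, SD, n = 2 each; exact permutation p = 1, two-sided). WT replicate 1 had the longest and WT replicate 2 the shortest reads, with both KO libraries between them. The same order held among all reads of the libraries, whose mean length was 26.6 and 27.4 nt in the KO replicates, against 27.9 and 26.1 nt in the WT replicates; its part in the result was not tested.

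Reads of 20 to 24 nt made up 31.0% and 31.5% of 16S reads in KO replicates 1 and 2, against 23.8% and 49.7% in WT replicates 1 and 2. The most frequent length was 30 nt in both KO replicates and WT replicate 1, at 9.83% and 15.3% in KO and 13.4% in WT, and 24 nt in WT replicate 2, at 12.8%. Reads longer than 30 nt made up 20.4% and 17.4% in the KO replicates, against 24.3% and 15.4% in the WT replicates. The first base of a 16S read was most often A, in 42.2% and 47.3% of reads in the KO replicates, against 46.8% and 43.5% in the WT replicates.

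The number of distinct fragments was lowest in WT replicate 1, the shallowest library. There were 1406 and 1272 distinct 16S sequences in KO replicates 1 and 2, against 867 and 1303 in WT replicates 1 and 2, of which 529 and 427 in the KO replicates and 441 and 510 in the WT replicates had a single read. Brought to 5104 mitochondrial rRNA reads each, the libraries were expected to hold 862 and 798 distinct sequences in the KO replicates, against 867 and 797 in the WT replicates. The means at that depth were 830 ± 44.8 in KO and 832 ± 49.8 in WT (SD, n = 2 each; exact permutation p = 1, two-sided). One library of each genotype stood at about the higher level and one at the lower. A further count left out sequences of a single read at each library's own depth and only then brought the remaining reads to 1 depth. It gave 675 and 646 expected distinct sequences in the KO replicates, against 426 and 608 in the WT replicates. In that count both KO libraries lay above both WT libraries (exact permutation p = 0.333, two-sided), and WT replicate 1 was the lowest. The sequences left out were 441 of 867 in WT replicate 1, the shallowest library. This count therefore still depends on depth and cannot compare the genotypes.

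A small common set held most of the reads. Only 373 of the 2594 16S fragments were seen in all 4 libraries, and they held 82.8% and 85.4% of 16S reads in KO replicates 1 and 2, against 86.3% and 84.4% in WT replicates 1 and 2. A further 816 were seen in 2 or 3 libraries. The other 1405 were seen in 1 library, 886 of them as a single read. The 10 most abundant fragments of a library held 25.6% and 31.1% of its 16S reads in the KO replicates, against 27.9% and 30.9% in the WT replicates.

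At equal depth 16S held more distinct sequences than 28S and fewer than 18S in each library. In 1000 reads of 16S, 336 and 315 distinct sequences were expected in KO replicates 1 and 2, against 330 and 303 in WT replicates 1 and 2. In 1000 reads of 28S there were 149 and 143.7 in the KO replicates, against 101 and 61.8 in the WT replicates, and in 1000 reads of 18S there were 455 and 473 in the KO replicates, against 399 and 373 in the WT replicates. Within a library 16S exceeded 28S by 207 ± 33.3 sequences and lay below 18S by -103 ± 42.8 (16S minus 18S; SD, n = 4 libraries), in 4 of 4 libraries each. The exact sign-flip test gave p = 0.125 for both, the smallest it can give with 4 libraries, and 0.144 adjusted over 15 comparisons.

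The leading 16S sequence of a library took between 4.96% and 10.97% of its reads. In 28S the leading sequence took between 36.2% and 62.0%, and in mitochondrial tRNA between 23.6% and 41.7%. In 18S it took 6.08% and 5.23% in KO replicates 1 and 2, against 9.93% and 13.9% in WT replicates 1 and 2, and the leading share of 16S differed from that of 18S by -1.40 ± 5.93 percentage points (16S minus 18S; SD, n = 4 libraries; exact p = 0.625). In mean length 16S exceeded 28S by 1.88 ± 0.76 nt and was shorter than 5.8S, with a difference of -6.06 ± 1.90 nt (SD, n = 4; exact p = 0.125 and adjusted p = 0.144 for each). Against mitochondrial tRNA the difference was -0.002 ± 1.37 nt (exact p = 1), with 16S longer in 3 of 4 libraries and shorter in WT replicate 2, where the means were 25.9 nt for 16S and 27.9 nt for mitochondrial tRNA.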

How the data were processed

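Small RNA was sequenced from sperm (2 KO and 2 WT libraries, grouped by sample title). The authors deposited 1 line per distinct sequence of 20 to 45 nt with its whole read count, length, genome match and annotation string. The submitters' processing notes name DESeq2 1.42.1, RSEM 1.3.1, STAR 2.6.1c, Trim Galore 0.4.5 and the build mm10/GRCm38 without roles; the small RNA annotation tool and the library kit for sperm are not given in the sources used here. Counts were used as deposited. Of all reads, 8.71% to 20.4% had no annotation; they were left out of the fit of names and kept in totals and in the fit of sequences. Members were taken by the first annotation name. All their reads matched the genome and no member had a second name. The members, marker lists and tests were chosen with earlier results of these data known.

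Reads were summed per name or per sequence and tested in R 4.3.3 with edgeR 4.0.16, quasi-likelihood (filterByExpr, TMM, genotype as the only term, Benjamini-Hochberg, threshold 0.05), with DESeq2 1.42.0 as an alternative. The edgeR fits of names and of sequences were tested on simulated data with a set spread, and DESeq2 was not. The power of the fits in these libraries was not tested. The standard error is the log2 fold change over the root of F. Shares and lengths were compared by exact permutation over libraries. Distinct sequences at equal depth are hypergeometric expectations. Fragments were joined at 15 shared bases. Named fragments were the 8 most abundant per subunit and the 3 with the smallest p in each direction. Alternatives were other scalings, no count filter, genome-matching sequences, at least 2 reads, other denominators, the replicate block and leaving out each library. Coordinates came from RefSeq, GRCm38.p6.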

Additional observations from a re-analysis of the deposited data

Results flagged for a closer look

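Reads that the files label as mitochondrial DNA and rRNA, with no subunit, were found outside the 12S and 16S names. There were 641 and 615 such reads in KO replicates 1 and 2, against 176 and 420 reads in WT replicates 1 and 2. Some of them extend 12S-named sequences. The most abundant that does so is shown with its bases shared with 12S sequence 1 in capitals.
Unnamed fragment: CAAGGTGTAGCCaatgaaatggga
It had 28 and 8 reads in KO replicates 1 and 2, against 3 and 6 reads in WT replicates 1 and 2. Joined with the 12S-named reads at 15 shared bases and then by end overlaps of at least 9 bases, 392 and 384 reads labelled mitochondrial DNA in the KO replicates, against 102 and 217 in the WT replicates, connected to a 12S-named sequence. Counting as 12S only the reads joined at 15 shared bases gave 1.31% and 1.02% of mitochondrial rRNA reads in KO replicates 1 and 2. WT replicates 1 and 2 then stood at 0.584% and 0.844%. Counting all connected reads as 12S, not all of which carried the rRNA label, gave 2.44% and 2.35% in KO replicates 1 and 2. WT replicates 1 and 2 then stood at 1.96% and 1.47%. Both KO libraries lay above both WT libraries (2.39 ± 0.06% in KO and 1.71 ± 0.35% in WT, SD, n = 2 each; exact permutation p = 0.333, two-sided, the smallest possible). Counting every read labelled mitochondrial DNA as 12S, the share was 4.48% and 4.30% in the KO replicates, against 3.64% and 3.10% in the WT replicates. Under each of these counts 16S held over 95% of mitochondrial rRNA reads. In the fit of all names, reads labelled mitochondrial DNA had a log2 fold change of 0.15 (SE 0.45, adjusted p = 0.953, edgeR), a sign that turned under other settings. It was -0.016 with RLE factors or DESeq2, -0.27 with genome-matching sequences only, -0.15 without KO replicate 1 and 0.38 with library totals.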

How the results depend on the processing

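The log2 fold change of 16S stayed negative and uncalled under every alternative run, from -0.68 with genome-matching sequences only to -0.003 with library totals, and between -0.53 and -0.09 when 1 library was left out. With the replicate block it was -0.25 (adjusted p = 0.995, edgeR). The labels give both genotypes the numbers 1 and 2 but do not say that they pair the libraries, and deviations of same-numbered libraries correlated at -0.25 over names and -0.07 over sequences. The block and the crossed pairing each called 0 names and 0 16S fragments. 12S gave a value only without a count filter (log2 fold change -1.95, SE 1.84, adjusted p = 0.862, edgeR).

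Called 16S fragments ranged from 0 to 38 when 1 library was left out. The upper end came from the fit without WT replicate 1, which tested 278 16S fragments and had WT replicate 2 as the only WT library. Calls were also more frequent among all sequences there, so that count is not read as a result about 16S. The difference in the share of library reads, -0.112 points, was -1.92 among genome-matching reads and -1.90 among reads outside nuclear rRNA, which ended the overlap of the genotypes. Leaving out 1 library moved this share between -0.289 and 0.0658 percentage points (KO minus WT), the 12S share between -0.0273 and 0.00624, mean length between -0.96 and 1.51 nt, distinct sequences between -36.9 and 33.5, the share of fragment 1 between -0.52 and 7.56 points, the ratio to nuclear rRNA between 0.00110 and 0.0444 and the ratio to mitochondrial tRNA between -0.251 and 0.0138, and the share of segment 1 between -15.5 and -1.57 points. With sequences of at least 2 reads the difference in distinct sequences turned to 143.7, against -1.69, in a count that still depends on each library's depth. With genome-matching sequences only, which drops most 28S reads, the ratio to nuclear rRNA turned to -0.112. The 12S share turned to 0.682 and 1.01 points with chained or all reads labelled mitochondrial DNA. The cause of these turns was not tested further.

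Without a called value, signs of small fold changes also turned. Segment 2 was -0.0215 and -0.0216 and segment 4 -0.10 with RLE factors or DESeq2, and segment 5 was 0.14 with library totals. With library totals, fragments 2, 5, 6, 7 and 8 were 0.21, 0.13, 0.34, 0.018 and 0.31, and with no count filter fragments 2, 5, 6 and 8 were 0.26, 0.24, 0.48 and 0.25. Fragment 6 was 0.0061 with the replicate block and 0.0055 with the crossed one. When 1 library was left out, segments 2 to 5 ranged from 0.007 to 0.34, -0.25 to 1.83, -0.35 to 0.46 and -0.36 to 0.21, fragment 1 from -0.40 to 3.67, and fragments 4 to 8 from -1.10 to 0.090, -0.51 to 0.034, -0.38 to 0.43, -1.15 to 0.35 and -0.42 to 0.061. Library totals put the median over all names at 0.26 and over all sequences at 0.56, RLE factors put them at -0.19 and 0.02, and TMM at -0.005 and 0.09, so signs near these values follow the scaling. WT replicate 1 holds the fewest reads, which limits small counts.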
